A study of Mus musculus with 19 samples.

Results

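NRF2 (encoded by Nfe2l2) target genes of antioxidant defence were followed in mouse lung across 3 oral doses of a mixture of polycyclic aromatic hydrocarbons. The set was fixed by name and holds 10 genes, namely Nqo1, Hmox1, Gclc, Gclm, Txnrd1, Srxn1, Slc7a11, G6pdx, Gsr and Osgin1, out of 20660 gene symbols on the array. Every probe whose RefSeq accession belonged to one of them was taken, which gave 12 of 55681 probes. Hmox1 and Gsr had 2 probes each and the other genes 1. All mice were male MutaMouse animals about 12 weeks old, a strain that carries a bacterial reporter transgene for mutation assays on a mixed BALB/c and DBA/2 background. They were gavaged daily for 28 days with olive oil alone (D0, 5 mice) or with the 8PAH mixture in olive oil at 15 (D1, 4 mice), 30 (D2, 5 mice) or 60 (D3, 4 mice) mg benzo[a]pyrene (BaP) equivalents per kg body weight per day. Lungs were taken 72 h after the last dose, so every value below describes tissue after a pause in dosing. RNA came from random sections of lung tissue per the labels, and the methods name the right lobe. Each value is a log2 ratio of lung RNA (red dye) over a reference RNA, the same on every array, made from 11 mouse cell lines (green dye). A ratio of 0 means equal signal in both, and the level of one probe was not set against that of another.

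NRF2 is a transcription factor that KEAP1 holds in the cytoplasm and hands to a CUL3 ubiquitin ligase for destruction. Oxidants and electrophiles modify KEAP1, after which NRF2 accumulates in the nucleus, pairs with small MAF proteins and binds antioxidant response elements, where BACH1 competes with it. Polycyclic aromatic hydrocarbons bind the aryl hydrocarbon receptor (AHR), which induces the CYP1 enzymes that turn them into reactive metabolites, among them quinones. Nqo1 is known to be controlled by both NRF2 and AHR. The lung keeps a large glutathione pool in its lining fluid, and several of the genes studied here make, recycle or spend glutathione and NADPH.

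The RefSeq table of promoter windows (assembly GRCm38.p6, 250 bases before to 50 bases after each transcription start) held 9 windows for 7 of the 10 genes, and none for Gclc, Gsr or Hmox1. Both strands were searched for TGACNNNGC and TGAGNNNGC, a pair of forms of the antioxidant response element, and for GCGTG, the core of the AHR response element. One or the other antioxidant form was found in 27.8% of all 32851 windows (12.4% for the TGAC form and 17.6% for the TGAG form), and GCGTG in 32.4%. Of the 9 member windows, 6 held an antioxidant form and 7 held GCGTG, and 3 of the 9 belong to Txnrd1. The bases before the start are printed for the 3 genes that were higher at D3 in the test below, and for Gclm and G6pdx as genes with the TGAC form that did not pass it. A window of Txnrd1, which did not pass either, held a TGAC form 92 bases before the start and is not printed. The window of Slc7a11, which was not tested, held a TGAG form at 97 bases and is not printed. The printed bases read from 5′ to 3′ on the strand of the gene, with matches in capitals.
Nqo1: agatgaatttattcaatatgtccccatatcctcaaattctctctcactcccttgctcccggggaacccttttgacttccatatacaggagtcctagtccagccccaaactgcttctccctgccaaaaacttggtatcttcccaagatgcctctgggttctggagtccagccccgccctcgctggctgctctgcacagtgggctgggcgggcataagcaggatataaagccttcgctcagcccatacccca
Osgin1: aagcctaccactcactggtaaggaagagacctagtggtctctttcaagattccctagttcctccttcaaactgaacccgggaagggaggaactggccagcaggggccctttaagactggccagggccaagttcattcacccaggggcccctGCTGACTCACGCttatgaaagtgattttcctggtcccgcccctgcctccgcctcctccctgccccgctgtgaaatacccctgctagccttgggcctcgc
Srxn1: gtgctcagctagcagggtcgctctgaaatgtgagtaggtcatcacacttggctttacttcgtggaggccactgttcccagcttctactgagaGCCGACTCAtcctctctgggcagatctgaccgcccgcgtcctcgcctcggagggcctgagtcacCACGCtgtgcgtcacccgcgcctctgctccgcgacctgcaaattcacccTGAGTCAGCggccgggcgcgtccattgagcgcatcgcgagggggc
Gclm: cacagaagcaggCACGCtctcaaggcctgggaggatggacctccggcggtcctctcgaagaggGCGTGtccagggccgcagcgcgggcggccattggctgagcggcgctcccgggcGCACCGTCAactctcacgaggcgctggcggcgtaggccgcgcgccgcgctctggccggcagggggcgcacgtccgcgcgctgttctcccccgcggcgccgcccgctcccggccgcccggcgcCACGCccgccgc
G6pdx: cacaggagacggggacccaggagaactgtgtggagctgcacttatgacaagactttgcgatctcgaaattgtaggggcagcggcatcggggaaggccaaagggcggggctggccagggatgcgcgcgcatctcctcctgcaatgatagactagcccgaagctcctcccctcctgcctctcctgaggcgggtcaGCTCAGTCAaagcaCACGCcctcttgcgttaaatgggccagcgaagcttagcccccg
These stretches lie at chr8:107403206-107403455 on the minus strand for Nqo1, chr8:119436897-119437146 on the plus strand for Osgin1, chr2:152105274-152105523 on the plus strand for Srxn1, chr3:122245307-122245556 on the plus strand for Gclm and chrX:74428881-74429130 on the minus strand for G6pdx. The Nqo1 window held none of the 3 patterns. In the Osgin1 window a TGAG form on the other strand, first base 99 bases before the start, ran into a GCGTG match on the same strand as itself, first base 92 bases before the start, so that both share 2 bases. The Srxn1 window held TGAG forms 158 and 45 bases before the start, GCGTG 94 bases before it and, in the searched but unprinted bases after the start, a TGAC form at 28 and GCGTG at 45. In Gclm the TGAC form began 134 bases before the start, with GCGTG at 238, 187 and 12 bases. In G6pdx the TGAC form began 57 bases and GCGTG 43 bases before the start. A match describes the letters of these windows, not binding, and elements farther from the start were not searched.

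The 19 arrays (1 per mouse, with a pair for mouse 35 of D3 that was averaged) lay on 3 slides, and every slide held all 4 groups. The share of spots well above background in the lung channel was 54.5% to 64.7% per array, and no spot was saturated. The column of an array on its slide followed the dose, so effects of column and of dose cannot be told apart. The labels place mouse 23 in D2, while the methods of the study count 1 more mouse in D1, and the label was followed. Markers of lung epithelium were present as the tissue label says, since all 5 alveolar type 2, all 4 alveolar type 1 and all 3 ciliated cell markers were well above background in all 18 mice. The strain, the housing and the vehicle were shared by all groups.

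At the top dose 3 of the 10 genes were higher than in vehicle-treated lung, Osgin1, Nqo1 and Srxn1, and 1 of the 2 Hmox1 probes was lower. Of the 12 probes, 11 were well above background in all 18 mice and were tested, and the Slc7a11 probe was not. A probe passed at a limma adjusted p of at most 0.05 over all 31005 probes tested on the array. At D3 against D0, 4 of 11 probes passed, against 12.4% of all probes tested, with 3 higher (6.02% of all probes) and 1 lower (6.37%). A change of at least 1.5-fold as well was reached by Osgin1 and Nqo1, 2 of 11 probes, against 2.43% of all probes. At D2 only Osgin1 passed, 1 of 11 probes against 2.09% of all. At D1 none of the 11 passed, with 4 below an unadjusted p of 0.05 (19.8% of all probes) and 0 past residual shuffling (3.82%), while 4.73% of all probes passed by limma. With slide as a block both Hmox1 probes passed at D1, 2 of 11 against 8.24% of all. The median log2 fold change of the 11 probes was 0.01 at D1, 0.08 at D2 and 0.09 at D3, beside 0.01, -0.00 and -0.00 for all probes tested. At D3 the 11 values ran from -0.32 to 0.62. All 3 comparisons share the same 5 D0 mice.

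**Figure D1:**
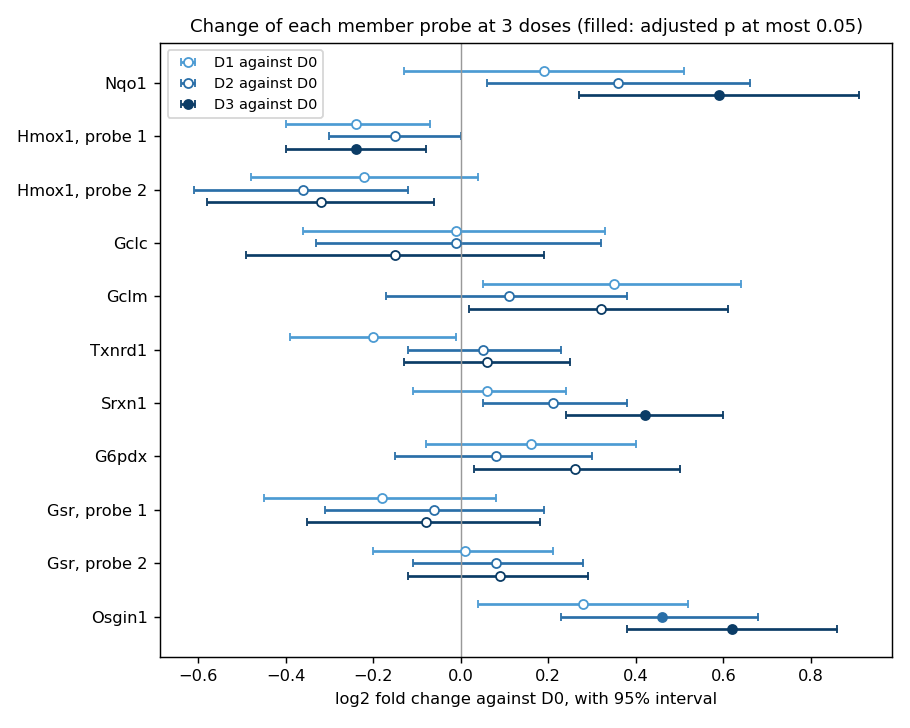
Log2 fold change of each of the 11 tested probes against D0 (x axis) with its 95% interval, for D1, D2 and D3; filled points passed the adjusted p. Osgin1 is filled at D2 and D3, Nqo1, Srxn1 and the first Hmox1 probe at D3 alone, and the intervals of Gclc and both Gsr probes include 0 at every dose.

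Nqo1 (NM_008706) encodes NAD(P)H quinone dehydrogenase, which reduces quinones by 2 electrons at once and so keeps them from redox cycling. Its log2 ratio was -2.17, -1.48, -1.62, -1.42 and -1.78 in the D0 mice and -1.27, -1.48, -1.53 and -1.74 in the D1 mice. It was -0.90, -1.21, -1.66, -1.50 and -1.39 in the D2 mice and -0.96, -1.01, -1.14 and -1.30 in the D3 mice. All D3 mice lay above all D0 mice, while D1 and D2 overlapped D0, and the lowest value of the study was that of D0 mouse 1. Group means lay in the order of dose, from -1.69 ± 0.30 (SD, n = 5) in D0 through -1.50 ± 0.19 (n = 4) and -1.33 ± 0.29 (n = 5) to -1.10 ± 0.15 (n = 4). The fold change at D3 was 1.51, or 0.59 on the log2 scale (95% interval 0.27 to 0.91, adjusted p = 0.016, higher in 4 of 4 mice). The changes of 0.19 at D1 (adjusted p = 0.543) and 0.36 at D2 (adjusted p = 0.234) did not pass. Without D3 mouse 31 the D3 value was 0.54 and did not pass (adjusted p = 0.0523), and without D0 mouse 1 it passed at 0.47 (adjusted p = 0.0399), below 1.5-fold. It also passed but lay below 1.5-fold without D0 mouse 5 or D3 mouse 32.

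Osgin1 (NM_027950), oxidative stress induced growth inhibitor, encodes a protein that slows cell growth and promotes cell death, and it was the 1 member past the test at D2 as well as at D3. Its log2 ratio was -0.21, 0.20, 0.26, 0.44 and 0.16 in D0 and 0.55, 0.44, 0.43 and 0.36 in D1. It was 0.82, 0.52, 0.44, 0.89 and 0.47 in D2 and 0.85, 0.66, 0.87 and 0.77 in D3. All D2 and all D3 mice lay above all D0 mice, at D2 by a margin of 0.443 over 0.439, and D1 overlapped D0 through D0 mouse 4. The means were 0.17 ± 0.24 (SD, n = 5), 0.45 ± 0.08 (n = 4), 0.63 ± 0.21 (n = 5) and 0.79 ± 0.10 (n = 4). The log2 fold change was 0.62 at D3 (1.53-fold, 95% interval 0.38 to 0.86, adjusted p = 0.00185, 4 of 4 mice) and 0.46 at D2 (1.37-fold, 0.23 to 0.68, adjusted p = 0.0306, 5 of 5 mice). At D1 it was 0.28 (adjusted p = 0.182, 4 of 4 mice above the D0 mean). At D2 Osgin1 no longer passed when any 1 of D0 mice 1, 2, 3 and 5 and D2 mice 26 and 30 was left out, where the adjusted p was 0.0526 to 0.0836. The D3 change passed the adjusted p without any 1 mouse, at 0.52 to 0.68, and was below 1.5-fold without D0 mouse 1 (0.52).

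Srxn1 (NM_029688) encodes sulfiredoxin, which repairs overoxidised peroxiredoxins at the cost of ATP. Its log2 ratio was -0.79, -0.76, -0.88, -0.87 and -0.86 in D0, a narrow range, and -0.75, -0.59, -0.95 and -0.78 in D1. It was -0.45, -0.66, -0.60, -0.76 and -0.63 in D2 and -0.35, -0.33, -0.64 and -0.32 in D3. All D3 mice lay above all D0 mice, and D3 mouse 34 lay near the D2 mice, apart from the other 3 of its group. The means were -0.83 ± 0.06 (SD, n = 5), -0.77 ± 0.15 (n = 4), -0.62 ± 0.11 (n = 5) and -0.41 ± 0.15 (n = 4). The log2 fold change at D3 was 0.42 (1.34-fold, 95% interval 0.24 to 0.60, adjusted p = 0.00331, 4 of 4 mice), short of 1.5-fold. It was 0.06 at D1 (adjusted p = 0.737) and 0.21 at D2 (adjusted p = 0.195). The D3 change passed without any 1 mouse, at 0.39 to 0.50.

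**Figure D2:**
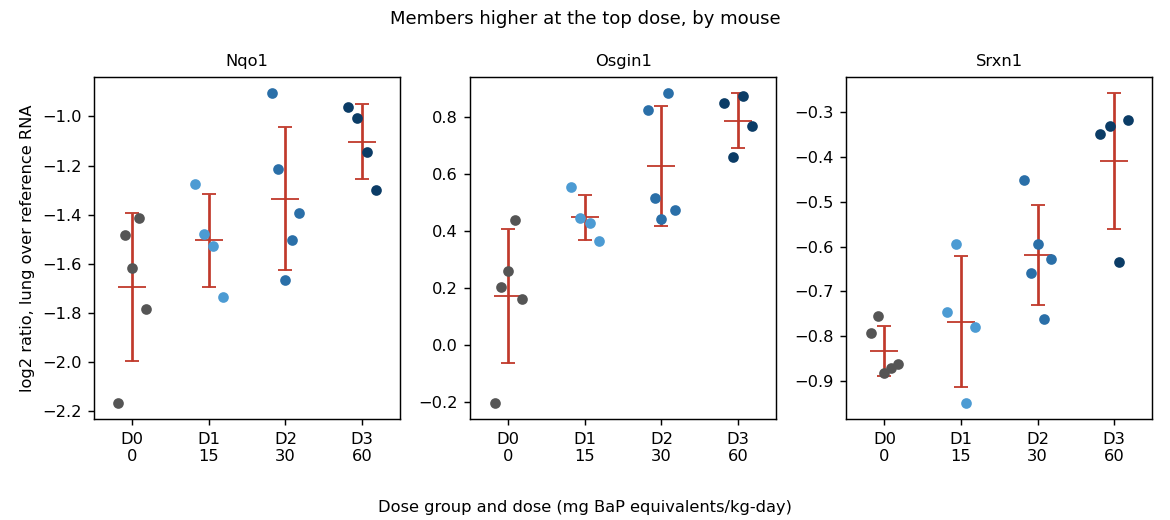
Log2 ratio of lung over reference RNA (y axis) of Nqo1, Osgin1 and Srxn1 in each mouse by dose group; horizontal red marks are group means and bars 1 SD. In each panel the 4 D3 mice lie above the 5 D0 mice and the means follow the order of dose.

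Hmox1 (NM_010442) encodes heme oxygenase, which splits heme into biliverdin, carbon monoxide and iron and is a sensitive target of NRF2 and of release from BACH1. Its direction was the opposite of that of Nqo1 and Osgin1. The first probe (A_51_P263965) had log2 ratios of -3.02, -3.09, -3.21, -3.18 and -3.17 in D0 and -3.37, -3.37, -3.54 and -3.20 in D1. It had -3.22, -3.19, -3.34, -3.30 and -3.36 in D2 and -3.39, -3.23, -3.45 and -3.45 in D3. All D3 mice lay below all D0 mice, by -3.23 against -3.21 at the nearest, and D1 and D2 each overlapped D0. Its log2 fold change was -0.24 at D1 (adjusted p = 0.0849), -0.15 at D2 (adjusted p = 0.362) and -0.24 at D3 (95% interval -0.40 to -0.08, adjusted p = 0.0445, lower in 4 of 4 mice). The second probe (A_55_P2029687) had means of -1.50 ± 0.17 (SD, n = 5), -1.72 ± 0.18 (n = 4), -1.86 ± 0.24 (n = 5) and -1.82 ± 0.17 (n = 4), and its changes of -0.22, -0.36 and -0.32 did not pass (adjusted p = 0.337, 0.123 and 0.0993). Both probes had every dosed mouse below the D0 mean, in 13 of 13 mice. The D3 call of the first probe was lost without any 1 of 12 mice, each left out in turn, and was held by 6 of 13 other settings, and with slide as a block both probes passed at D3 (adjusted p = 0.014 and 0.00755) and at D1 (0.0249 and 0.0476), and the second also at D2 (0.0101) and for the trend over dose (0.0191).

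The genes of glutathione supply did not pass at any dose. Gclc (NM_010295), the catalytic subunit of glutamate-cysteine ligase, had means of 1.57 ± 0.15 (SD, n = 5) in D0 and 1.42 ± 0.27 (n = 4) in D3, and its D3 change of -0.15 had an interval of -0.49 to 0.19. Gclm (NM_008129), the modifier subunit of the same enzyme, had means of -0.40 ± 0.19 (n = 5), -0.06 ± 0.26 (n = 4), -0.30 ± 0.21 (n = 5) and -0.09 ± 0.26 (n = 4). Its changes of 0.35 at D1 (0.05 to 0.64, adjusted p = 0.168) and 0.32 at D3 (0.02 to 0.61, adjusted p = 0.157) had every mouse above the D0 mean, and at D2 the change was 0.11. The 4 groups of Gclm overlapped one another. Gsr (NM_010344), glutathione reductase, which restores reduced glutathione with NADPH, was measured by 2 probes that differed in sign at D3, with -0.08 (-0.35 to 0.18) and 0.09 (-0.12 to 0.29). Slc7a11 (NM_011990), the cystine importer that feeds glutathione synthesis, was not well above background in the lung channel in any of 18 mice, and in the reference channel it was so in 9 of 18. No fold is given for it.

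Txnrd1 and G6pdx, which supply reducing power to thioredoxin and NADPH, did not pass either. Txnrd1 (NM_001042523), thioredoxin reductase, ranged from -0.96 to -0.59 in D0, from -1.11 to -0.74 in D1, from -0.81 to -0.53 in D2 and from -0.79 to -0.63 in D3. Its change was -0.20 at D1 (-0.39 to -0.01, adjusted p = 0.219), 0.05 at D2 and 0.06 at D3 (-0.13 to 0.25, adjusted p = 0.735). G6pdx (NM_008062), glucose-6-phosphate dehydrogenase, the entry enzyme of the pentose phosphate pathway, ranged from -1.38 to -0.93 in D0 and from -1.02 to -0.85 in D3. Its D3 change of 0.26 (0.03 to 0.50, adjusted p = 0.14) had 4 of 4 mice above the D0 mean, and it passed with slide as a block (0.29, adjusted p = 0.00632).

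**Figure D3:**
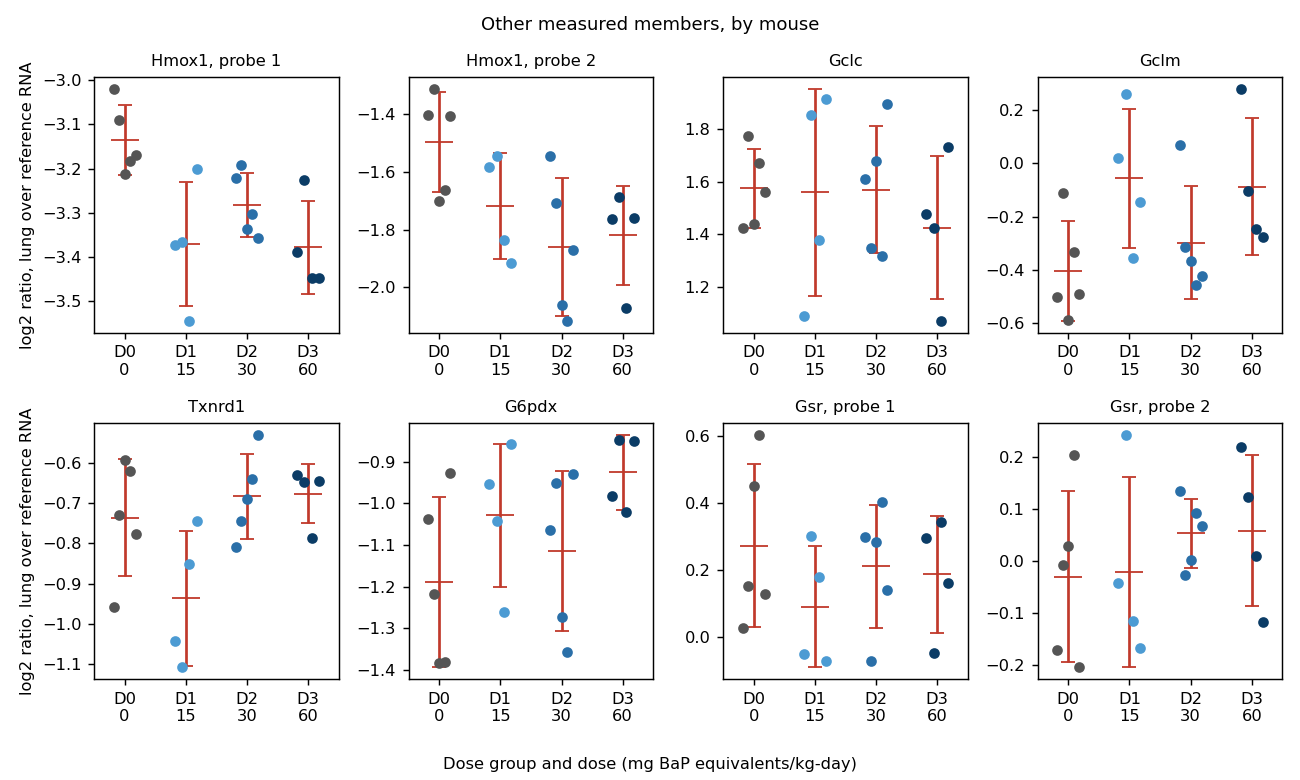
Log2 ratio of lung over reference RNA (y axis) in each mouse by dose group for both Hmox1 probes, Gclc, Gclm, Txnrd1, G6pdx and both Gsr probes; red marks are group means and bars 1 SD. Both Hmox1 panels show all dosed mice below the D0 mean, while the groups of Gclc and Gsr overlap throughout.

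Groups that did not overlap with D0 were seen for 4 of 11 probes at D3 (Osgin1, Nqo1, Srxn1 and the first Hmox1 probe), against 14.6% of all probes tested. At D2 they were seen for 1 (Osgin1), against 4.11%, and at D1 for 0, against 8.93%. A linear trend over dose passed for Osgin1 (a fitted change of 0.59 from D0 to D3, adjusted p = 0.00314), Srxn1 (0.44, adjusted p = 0.00319) and Nqo1 (0.58, adjusted p = 0.021), 3 of 11 probes against 8.05% of all. Neither Hmox1 probe passed the trend (adjusted p = 0.142 and 0.146), although the second did with slide as a block. G6pdx also passed it under that setting (0.27, adjusted p = 0.0131), which gave 5 of 11 probes against 12.3% of all. No member passed between neighbouring doses. For D2 against D1 none did, as for 0% of all probes, with 1 member (Txnrd1, 0.25) below an unadjusted p of 0.05 (9.82% of all probes) and 0 past residual shuffling (0.00645%). For D3 against D2 none did, against 0.181% of all probes, with 1 member (Srxn1, 0.21, adjusted p = 0.342) below an unadjusted p of 0.05 (11.7% of all probes) and 0 past residual shuffling (0.168%). The steps from D2 to D3 were 0.23 for Nqo1 (-0.09 to 0.55) and 0.16 for Osgin1 (-0.08 to 0.40). Nqo1, Osgin1 and Srxn1 thus had means in the order D0, D1, D2, D3, in which no pair of neighbours passed the test. So did the second Gsr probe (-0.03, -0.02, 0.05 and 0.06), whose D3 change of 0.09 did not pass (adjusted p = 0.619). The share of all probes with means in that order was not computed.

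Within slides the D3 changes of the 4 probes that passed kept their direction. For these probes that was fixed in advance, because their D3 and D0 mice did not overlap. The changes of the second Hmox1 probe, Gclm and G6pdx also kept their direction, while those of Txnrd1, Gclc and both Gsr probes differed in sign between slides. The share of all probes that kept their direction was not computed. D3 minus D0 for Nqo1 was 0.84 on slide 1, 0.32 on slide 2 (2 arrays against 2 on each) and 0.43 on slide 3 (1 array against 1). For Osgin1 it was 0.76, 0.47 and 0.61, for Srxn1 0.43, 0.31 and 0.71, and for the first Hmox1 probe -0.25, -0.29 and -0.20. The second Hmox1 probe gave -0.37, -0.25 and -0.33. At D2 the Nqo1 difference was 0.77 on slide 1, -0.07 on slide 2 and 0.39 on slide 3, so the D2 mean of Nqo1 rested mainly on slide 1. The D2 difference of Osgin1 was 0.67, 0.32 and 0.31. The pair of arrays of mouse 35, on slides 2 and 3, differed by 0.00 for Osgin1, -0.11 for Nqo1 and 0.34 for Srxn1.

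**Figure D4:**
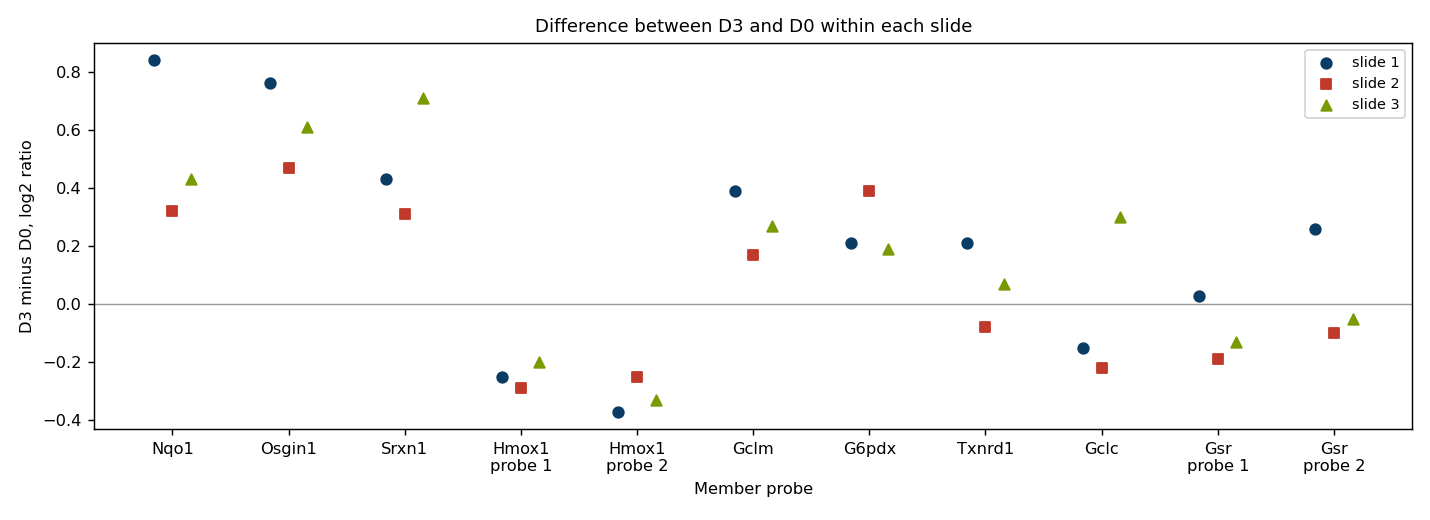
D3 minus D0 difference in log2 ratio (y axis) within each of the 3 slides for each of the 11 tested probes, named on the x axis. Nqo1, Osgin1, Srxn1, Gclm and G6pdx lie above 0 on every slide and both Hmox1 probes below it, while Txnrd1, Gclc and both Gsr probes lie on both sides.

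Median centring of each array in place of loess put the median of all probes at 0.17 for D1, 0.12 for D2 and 0.06 for D3 (0.01, -0.00 and -0.00 with loess), and no member passed under it. Of all probes 0.316% then passed at D3, where 12.4% had passed with loess. At D3 the changes were then 0.66 for Nqo1 (adjusted p = 0.272), 0.78 for Osgin1 (0.473), 0.61 for Srxn1 (0.696) and -0.02 for the first Hmox1 probe (0.983), each to be read against the median of 0.06. In the other 31 settings tried Osgin1 and Srxn1 stayed past the adjusted p at D3, as did Nqo1 except without D3 mouse 31.

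Over the 7 lists of other pathway genes 7 of 67 genes passed at D3, or 10.4%, near the 12.4% of all probes. Of 8 regulators of NRF2, Mafg, which encodes a small MAF partner, was lower at D1 (-0.28, adjusted p = 0.0499) and D3 (-0.33, adjusted p = 0.0108), and none was higher. Nfe2l2 itself had a change of 0.17 at D3 (adjusted p = 0.349), Keap1 -0.12 and Bach1 -0.10. The median of this list at D3 was -0.06. Of 13 genes of the thioredoxin and peroxiredoxin system 1 passed, Glrx2, a mitochondrial glutaredoxin, with -0.48 at D1 and -0.53 at D3 (adjusted p = 0.00551), and the list median was -0.14. Among the peroxiredoxins that sulfiredoxin can repair, Prdx1 had -0.08, Prdx2 0.20 and Prdx3 0.13 at D3, and none passed.

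Of 15 measured genes of glutathione synthesis and use 1 passed at D3, Gpx1, which reduces hydrogen peroxide with glutathione, at 0.33 (adjusted p = 0.0194). Slc3a2, the partner chain of Slc7a11, had 0.28 (adjusted p = 0.0614). None of 7 genes of NADPH supply and none of 4 of superoxide and hydrogen peroxide removal passed at any dose. Of 7 genes of heme and iron handling, Slc40a1, the iron exporter ferroportin, was higher at D3 (0.51, adjusted p = 0.0175), and Fth1 and Ftl1, the ferritin chains, had -0.02 and -0.27. Hmox2, the second heme oxygenase, had 0.01.

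Of 13 measured detoxifying enzymes and pumps assigned to NRF2, 2 were higher and 1 lower at D3. Ephx1, the microsomal epoxide hydrolase that acts on hydrocarbon epoxides, rose by 0.77, 0.99 and 1.38 at D1, D2 and D3 (adjusted p = 1.3e-07 at D3), above the value of every member at each dose. Akr1b8, an aldo-keto reductase, rose at D3 (0.38, adjusted p = 0.0441), and its 0.01 at D1 and 0.06 at D2 did not pass. Abcc3, an efflux pump, fell by 0.38 in D2 and by 0.58 in D3 (adjusted p = 0.00107). Pir had 0.31 (adjusted p = 0.0722), Aldh3a1 -0.46 (adjusted p = 0.312) and Nqo2 0.20, and these did not pass. These lists were written with earlier results of these data known, and their list medians at D3 lay between -0.14 and 0.12, beside -0.00 for all probes.

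The changes of the members were smaller than those of several AHR and p53 targets in the same lungs, a difference that was not itself tested. Cyp1a1, the main hydrocarbon-oxidising P450, rose by 2.96 at D2 and 3.61 at D3 (adjusted p = 0.000839), while its 1.29 at D1 did not pass (adjusted p = 0.247). Cyp1b1, a related P450, rose by 1.66, 2.42 and 2.68. Ahrr, the AHR repressor, passed as higher at all 3 doses but was well above background in 14 of 18 mice only, so no fold is given for it. Of 4 AHR reference genes 3 passed at D3, and of 8 p53 targets 5 did, against 12.4% of all probes, in lists that were likewise written with earlier results known. The latter were Cdkn1a (3.12), Trp53inp1 (1.42), Sesn2 (0.92), Aifm2 (0.42) and Gpx1 (0.33). Gpx1 is also counted among the glutathione genes above, and the changes of Aifm2 and Gpx1 were below the 0.62 of Osgin1. Sesn2 encodes a sestrin with a role in antioxidant defence, and Aifm2 encodes FSP1, a reductase that counters lipid peroxidation. Tigar (0.05), Sesn1 (0.07) and Gls2 (0.12) did not pass. Nor did the remaining AHR reference gene, Tiparp, with 0.10 at D3 (adjusted p = 0.527), below Nqo1, Osgin1 and Srxn1.

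**Figure D5:**
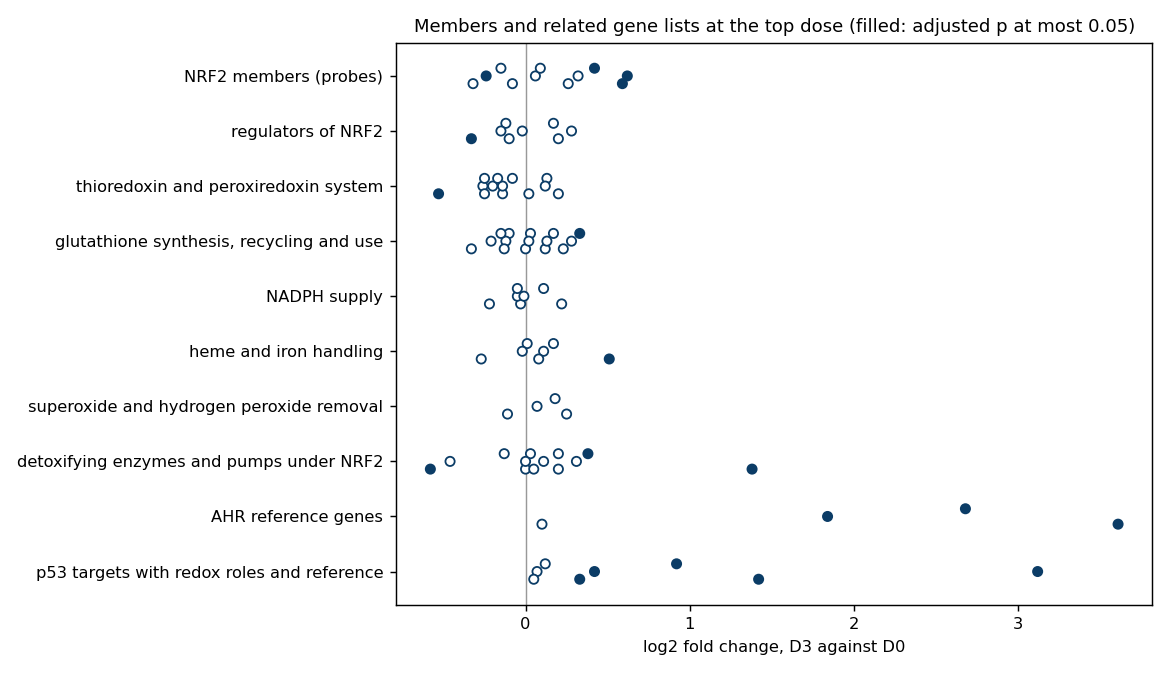
Log2 fold change at D3 against D0 (x axis) of the 11 member probes and of each measured gene in the 9 related lists, one row per list; filled points passed the adjusted p and the offset within a row has no meaning. The members reach 0.62 at most, while Cyp1a1 lies at 3.61 and Cdkn1a at 3.12.

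The genes whose log2 ratios over the 18 mice were most like those of Nqo1, among 14738 gene symbols by their brightest probe, were Mapk8ip1 (Pearson r = 0.852), Pir (0.835), Fam229b (0.834), Intu (0.833) and Osgin1 (0.83). These values describe the pattern over dose and mice together and carry no test. Their D3 changes were 0.26, 0.31, 0.30, 0.42 and 0.62. Among the other members Srxn1 came at place 127 (r = 0.663) and Gclm at place 346 (r = 0.59), and Hmox1 had r = -0.405. Cyp1b1 and Cyp1a1 came at places 103 and 118.

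It was also asked whether mice of one dose that had more Nqo1 had more of the other members, using deviations from the dose group means over 18 mice and permutation of mice within groups. None of 9 relations passed after adjustment, in permutations that left slide out of account. No p was computed with slide taken out. Osgin1 had Pearson r = 0.65 (permutation p = 0.0262, adjusted 0.118) and Spearman rho = 0.60 (permutation p = 0.0267, adjusted 0.12). Its r was 0.27 without D0 mouse 1 and D2 mouse 26, the 2 mice farthest from the median of Nqo1. Leaving these out narrows the range of Nqo1, and no other pair was left out for comparison. With slide also taken out, over all 18 mice, the r of Osgin1 was 0.80. Gclm had r = 0.60 (permutation p = 0.0118, adjusted 0.106) and rho = 0.64 (permutation p = 0.00783, adjusted 0.0705), and r = 0.51 without those 2 mice. The r of Srxn1 was 0.23, of Cyp1a1 0.25 and of Hmox1 -0.01. Under median centring all 8 members had r of 0.61 to 0.86 and Cyp1a1 0.06. Hmox1, Gclc and Txnrd1, with r of -0.01, -0.11 and 0.02 under loess, then had 0.65, 0.67 and 0.77. That setting also widened the spread between mice, with a D3 standard error of 0.23 in place of 0.08 for the first Hmox1 probe. The r of all other genes was not computed under it, so these values do not set the members apart.

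Markers of other cells moved at the top dose, and some did so at lower doses. At D1, 1 NK cell marker passed as lower and 1 endothelial marker as higher. Gzma had -1.60 at D1 and -2.13 at D2, and Pecam1 had 0.67 at D1 and 0.28 at D2. The mean of the macrophage markers ranged from 3.02 to 3.76 in D2, below its range in D0. All 4 neutrophil markers passed as higher at D3, and their mean log2 ratio ranged from 2.20 to 3.04 in D0 and from 3.29 to 4.86 in D3. Of 6 alveolar macrophage markers 2 were lower (Krt79 by -1.40 and Fabp1 by -0.94) and Marco had 0.94 (adjusted p = 0.0745), with a range of their mean of 3.80 to 4.04 in D0 and 3.28 to 3.60 in D3. Of 3 NK cell markers 2 were lower, Gzma by -3.07 and Klrb1c by -0.57, with a range of their mean of 1.66 to 2.65 in D0 and 0.48 to 0.89 in D3, although Klrb1c was well above background in 13 and Ncr1 in 12 of 18 mice. None of the markers of alveolar type 1, alveolar type 2, club or ciliated cells passed. Of 3 endothelial markers 1 passed, Pecam1 as higher, while Cldn5 had -0.17 and Cdh5 0.27. Of 3 fibroblast markers 1 passed, Dcn as lower, while Col1a1 had 0.09 and Pdgfra -0.17. The cardiac muscle score, which marks heart tissue in a lung sample, ranged from 3.69 to 4.35 in D0 and from 1.37 to 4.91 in D3. The part of these cells in the changes of Nqo1, Osgin1, Srxn1 and Hmox1 was not tested, and in bulk lung tissue fewer cells of a type and less RNA per cell cannot be told apart.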

How the data were processed

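Each array compared lung RNA labelled with Cy5 with Universal Mouse Reference RNA labelled with Cy3. The deposited scanner files, written by Agilent Feature Extraction 11.0.1.1 per the file headers (the study's methods name another release), hold spot intensity values without normalization and a set corrected by that software for background and dye. The log2 ratios of the deposited series table had been normalized by the authors. It correlated with the ratios computed here at 0.995 to 0.998 per array, in the direction of Cy5 over Cy3.

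Control spots (3671 of 62976) and spots marked as outliers (171 to 323 per array) were removed. Without subtracting background, median signals were normalized within arrays by loess (span 0.3), spots of a probe were averaged, and so were the pair of arrays of mouse 35. A probe was tested where its Cy5 signal was well above background in at least 4 mice of 1 group. Of 22765 RefSeq-type identifiers 21465 matched a RefSeq gene table (GRCm38.p6).

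The tests were those of limma 3.58.1 (R 4.3.3), with lmFit and eBayes on all 18 mice at once, with Benjamini-Hochberg adjustment over all 31005 probes, and checked on simulated data. The study used MAANOVA, which was not installed. A form of residual shuffling was run with 100 shuffles as an alternative, with limma's t statistics pooled over all probes in place of the study's Fs statistic. Relations between genes used 100000 permutations, 2-sided. Each mouse is a separate animal. No dyes were swapped, so ratios are open to dye bias, and the number of arrays limits the precision. The other alternatives were median centring, processed signals, normexp with offset 50, the deposited table, the red channel alone, other filters, slide as a block, 1 array of mouse 35, mouse 23 in D1, the mean of a gene's probes, a trended robust variance and leaving out each mouse. Within-slide differences were added after seeing the data. The members and gene lists were chosen with earlier results of these data known. The text names all member probes, up to 4 genes per list that passed with the largest change by their brightest probe, the 3 reference genes Cyp1a1, Cyp1b1 and Cdkn1a, and the 5 genes most like Nqo1. Other genes named with values that did not pass were chosen after their values were seen, as members of the lists with known roles. Gsta1 and Scgb3a2 matched no probe, and Abcc2 was not tested.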

Additional observations from a re-analysis of the deposited data

Results flagged for a closer look

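Among the 48 groups of 4 or 5 mice, formed by 12 member probes and 4 doses, 3 had a mouse that stood apart from the rest of its group by a gap larger than Dixon's 95% critical value, and chance gives about 1 in 20. Mouse 26 of D2 had a Gclm log2 ratio of 0.07, against -0.31 in the nearest of its group. Mouse 34 of D3 had a Srxn1 log2 ratio of -0.64, against -0.35 in the nearest, and without it the D3 change of Srxn1 was 0.50. The same mouse had a Txnrd1 log2 ratio of -0.79, against -0.65 in the nearest.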

How the results depend on the processing

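Of 1392 log2 fold changes of single probes recomputed under 32 other settings, 1321 kept their direction and their side of the threshold, 36 were no longer past it, 7 came past it and 28 changed sign, none of them past the threshold in either fit. Median centring gave 0 passing members at D2, D3 and for the trend, where 0.0581%, 0.316% and 0.239% of all probes passed, and the red channel alone gave 0 at D2 (2.33% of all probes). Slide as a block gave 2 at D1, 2 at D2, 6 at D3 and 5 for the trend, where 8.24%, 4.36%, 17.7% and 12.3% of all probes passed. Leaving out each mouse gave 0 at D1, 0 to 1 at D2, 2 to 4 at D3 and 2 to 3 for the trend, where 2.64% to 5.31%, 1.16% to 2.15%, 7.91% to 12.7% and 3.65% to 7.93% of all probes passed, with 2 at D3 without D3 mouse 31, where Nqo1 and Hmox1 were lost. For the trend Nqo1 was lost without D3 mouse 31 or 32. The D3 call of Nqo1 with at least 1.5-fold change was lost under 5 of 14 settings that kept all mice, at 0.57 to 0.58 under 4 of them and through its adjusted p (0.66, adjusted p = 0.272) under median centring. This call was also lost without D0 mouse 1 or 5 or D3 mouse 31 or 32. That of Osgin1 was lost without D0 mouse 1 (0.52), with the red channel alone (0.52) and under median centring (0.78, adjusted p = 0.473). Changed signs under median centring, against its shift of all probes, were 0.09 for Hmox1, 0.32 for Gclc, 0.14 for Txnrd1 and 0.18 for Gsr at D1, 0.08 for Hmox1, 0.23 for Gclc and 0.18 for Gsr at D2, 0.08 for Gclc and 0.15 for Gsr at D3, and 0.12 for the Gsr trend. The deposited table gave -0.01 for the second Gsr probe at D1, the first array of mouse 35 gave 0.01 for the Gsr trend, and mouse 23 in D1 gave 0.05 for Gclc at D1. Without 1 mouse, Gclc ran from -0.13 to 0.14 at D1 and from -0.09 to 0.06 at D2, Gsr from -0.12 to 0.02 at D2 and from -0.08 to 0.05 for the trend, and its second probe from -0.08 to 0.07 at D1. No analysis paired by animal was possible because the dose groups share no animal numbers. Groups were matched by slide only in the fit with slide as a block and in the within-slide differences. The causes of these shifts were not tested. Signals near background limit the dim Slc7a11 probe, which has no level here.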
